A study of Mus musculus with 6 samples.

Results

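Origin licensing is the step that prepares DNA for replication. Its genes were compared between hearts labelled as having or lacking a cardiac deletion of Kdm5b. In G1 phase the origin recognition complex recruits CDC6 and CDT1, which load the MCM2 to MCM7 helicase ring onto DNA. Geminin, which accumulates in S, G2 and M phases, binds CDT1 and blocks further loading, and MCM10 helps to start the loaded helicase in S phase. Most of these genes are classic targets of the E2F factors, and heart muscle cells of the mouse leave the cell cycle in the first days after birth. The genes described here are Mcm2, Mcm3, Mcm4, Mcm5, Mcm6, Mcm7, Mcm10, Cdc6, Cdt1 and Gmnn (geminin), 10 genes of the 56748 in the deposited table, found by gene name. They were selected on their function with earlier results of these libraries known, among them the differences of Mcm3 and Mcm5 between the groups. Their differences between cKO and FF hearts are therefore given as a description, with no p-value. Counts of these genes at a p threshold are description too.

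RNA of whole hearts was sequenced at postnatal day 1 in 2 groups of 3 libraries. The control group carries the label Flox and the genotype FF, and the other group, cKO, is labelled as a knockout of Kdm5b in the heart. Kdm5b encodes a demethylase of histone H3. The labels used here do not state the promoter that drives the deletion, or whether each library is a separate animal, so tests measure the spread between these libraries. Expression is given as FPKM, fragments scaled to gene length and library size. Comparisons between genes rest on the deposited gene lengths, which were not checked against the transcripts present in these hearts.

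The libraries held 15658893 to 20339926 reads. Genes of the mitochondrial genome took 18.0% to 19.0% of the reads in FF and 12.8% to 15.7% in cKO hearts. With library sizes taken without mitochondrial and haemoglobin genes, the median log2 difference between the groups over Mcm2 to Mcm7 was -1.18, as it was with the deposited scaling. Kdm5b was at 3.19, 3.25 and 3.92 FPKM in the FF libraries and 2.80, 3.03 and 2.75 FPKM in the cKO libraries, over the whole gene and all heart cells. The groups did not overlap, but the cKO mean was 82.7% of the FF mean, or 88.8% without FF replicate 3. The log2 difference was -0.20 (SE 0.12, adjusted p = 0.447 in limma), and -0.13 (SE 0.098) without FF replicate 3. These values do not by themselves show a deletion, so the groups rest on their labels. The 8 heart muscle markers looked at (among them Myh6 and Actc1) were at 17.5 FPKM or more in every library. FF replicate 3 stood apart: it correlated with the others at 0.880 to 0.909, while the remaining 5 libraries correlated with each other at 0.954 to 0.984 (over genes). All 14 thymocyte markers were highest in it, with a summed level of 342 FPKM against 1.38 to 2.27 FPKM in the other 5 libraries. Trbc2, a T cell receptor constant region, led them at 109 FPKM. Thymocytes divide, and their part in the levels of licensing genes in FF replicate 3 was not tested, so results are given with and without that library. The summed level of 6 neutrophil markers (none at 0 throughout) was 14.5 to 24.2 FPKM in the FF libraries and 7.71 to 9.65 FPKM in the cKO libraries, and that of 6 macrophage markers 36.0 to 78.7 and 27.1 to 34.2 FPKM. The part of these cells in the results was not tested either.

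Transcripts of the helicase ring were lower in cKO hearts as a group. The summed level of Mcm2 to Mcm7 was 113, 87.9 and 125 FPKM in FF replicates 1, 2 and 3, and 46.9, 50.3 and 46.2 FPKM in the cKO replicates. The group means were 109 ± 19.0 and 47.8 ± 2.17 FPKM (SD, n = 3 each), and every cKO library lay below every FF library. In bulk tissue, fewer cells in the replicating phases and less RNA per cell cannot be told apart.

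Mcm3 and Mcm5 had the largest differences of the 10 genes on the log2(FPKM + 1) scale. Mcm3 (ENSMUSG00000041859, chromosome 1, 20873192 to 20890536, minus strand) was at 21.1, 16.2 and 25.5 FPKM in the FF libraries and 7.04, 6.35 and 6.78 FPKM in the cKO libraries. Its cKO mean was 32.2% of the FF mean, or 36.1% without FF replicate 3. Mcm5 (ENSMUSG00000005410, chromosome 8, 75836197 to 75855067, plus strand) was at 17.2, 15.3 and 21.1 FPKM in the FF libraries and 6.64, 7.03 and 5.69 FPKM in the cKO libraries. The groups of both genes were far apart compared with their spread, and FF replicate 3 was the highest library for each. MCM3 and MCM5 are neighbours in the ring, and MCM5 forms with MCM2 the gate through which DNA enters. The log2 differences were -1.48 (SE 0.18) for Mcm3 and -1.33 (SE 0.15) for Mcm5.

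Mcm2, the other side of that gate, and Mcm6, the neighbour of MCM2 in the ring, followed closely. Mcm2 (ENSMUSG00000002870, chromosome 6, 88860456 to 88875762, minus strand) was at 12.1, 8.63 and 13.6 FPKM in the FF libraries and 3.77, 5.16 and 3.97 FPKM in the cKO libraries. Mcm6 (ENSMUSG00000026355, chromosome 1, 128259327 to 128287401, minus strand) was at 26.0, 20.1 and 27.3 FPKM in the FF libraries and 10.3, 10.8 and 10.3 FPKM in the cKO libraries. Neither gene's groups overlapped, and the cKO values of Mcm6 all lay between 10.3 and 10.8 FPKM. Their log2 differences were -1.22 (SE 0.19) and -1.14 (SE 0.14).

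Mcm4 also lay lower in every cKO library, but its FF libraries were ordered in another way. This subunit of the catalytic core (ENSMUSG00000022673, chromosome 16, 15441761 to 15455264, minus strand) was at 16.5, 13.3 and 11.7 FPKM in the FF libraries and 5.84, 6.53 and 6.60 FPKM in the cKO libraries. FF replicate 3 was the lowest FF library here, so the log2 difference was larger without it, at -1.11 (SE 0.12) against -1.01 (SE 0.15) with 6 libraries. Mcm4 had the lowest GC content of the 10 genes, 45.5%, against a highest of 57.8% for Cdt1. Mcm10 (48.7%) and Gmnn (49.8%) were also lowest in FF replicate 3 among the FF libraries. The 7 genes highest there included Mcm6 (47.3%) and Cdc6 (49.2%). The part of GC content in this order was not tested. The deviation of a gene in FF replicate 3 from the mean went up with its GC content (Spearman's rho 0.61, over genes and so not over independent replicates). In the remaining libraries rho ran from -0.48 in FF replicate 1 to -0.049 in cKO replicate 3. With those trends removed, the log2 difference of Mcm4 was -1.07.

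Mcm7 was the exception in the ring. The gene (ENSMUSG00000029730, chromosome 5, 138162845 to 138170684, minus strand) encodes the partner of MCM4 in the catalytic core. It was at 20.46, 14.3 and 25.9 FPKM in the FF libraries and 13.3, 14.4 and 12.9 FPKM in the cKO libraries. FF replicate 2 lay below cKO replicate 2, so the groups overlapped, with or without FF replicate 3. The log2 difference was -0.51 (SE 0.21, 95% interval -1.02 to -0.0063), and -0.32 (SE 0.15, 95% interval -0.69 to 0.045) without FF replicate 3. Mcm7 overlaps Cops6 at its end and Ap4m1 at its start, both on the other strand. The labels do not state whether counting used strand, so reads of the shared parts may be split or lost. Cops6 was at 45.7 ± 4.27 FPKM in the FF libraries and 35.4 ± 2.61 FPKM in the cKO libraries, and Ap4m1 at 2.56 ± 0.720 and 3.85 ± 0.162 FPKM (SD, n = 3 each). The 3 microRNA genes inside Mcm7, Mir25, Mir93 and Mir106b, were listed at 0 in every library except for 1 read of Mir106b in FF replicate 2.

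**Figure D1:**
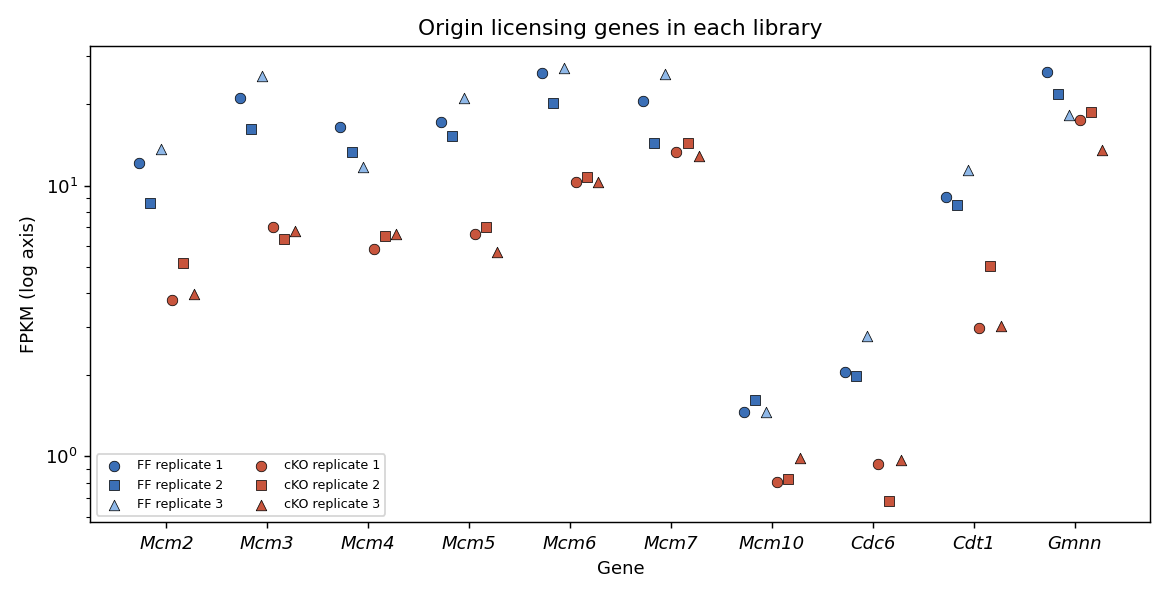
FPKM (log axis) of the 10 genes in each library, with FF libraries in blue and cKO libraries in red, FF replicate 3 in light blue. The groups are apart at 8 genes and overlap at Mcm7, where FF replicate 2 (14.3) lies below cKO replicate 2 (14.4), and at Gmnn, where FF replicate 3 (18.2) lies below cKO replicate 2 (18.6).

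The make-up of the ring transcripts therefore differed between the groups. A share of the summed Mcm2 to Mcm7 FPKM is a value within a library, so scaling between libraries cannot change it. Mcm7 made up 18.1%, 16.3% and 20.7% of that sum in FF and 28.3%, 28.7% and 27.8% in cKO hearts. Mcm3 made up 18.6%, 18.4% and 20.4% in FF and 15.02%, 12.6% and 14.7% in cKO hearts, and the share of Mcm5 went from 16.5% ± 1.16 to 13.5% ± 1.03 (SD, n = 3 each). The groups did not overlap for these 3 genes, and they did for Mcm2, Mcm4 and Mcm6. The share of Mcm6 was 22.6% ± 0.676 in FF and 21.9% ± 0.442 in cKO hearts. The ratio of Mcm7 to Mcm3 within a library was 0.972, 0.885 and 1.02 in FF and 1.88, 2.27 and 1.90 in cKO hearts. These are the ring genes with the smallest and largest log2 differences, so this ratio restates those differences. The ratio of Mcm6 to Mcm2 overlapped between the groups, at 2.16, 2.33 and 2.00 in FF and 2.74, 2.09 and 2.60 in cKO hearts. That of Mcm4 to Mcm3 was barely apart, at 0.782, 0.826 and 0.461 in FF and 0.829, 1.03 and 0.973 in cKO hearts. Mcm6 had the highest FPKM of the 6 genes in each FF library and Mcm7 in each cKO library.

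**Figure D2:**
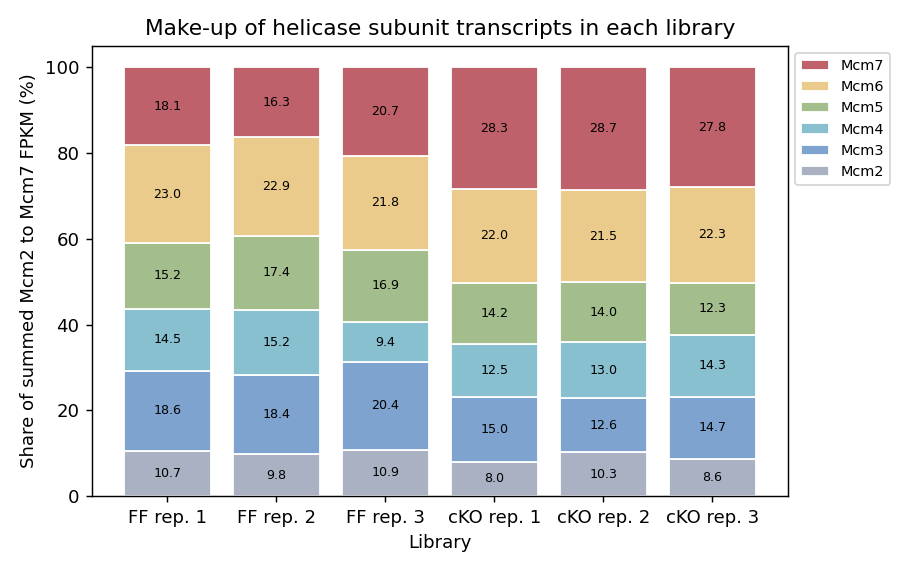
Share of the summed Mcm2 to Mcm7 FPKM (%) taken by each subunit, with 1 bar per library. The Mcm7 part is 16.3% to 20.7% in FF and 27.8% to 28.7% in cKO libraries, while the Mcm6 part stays between 21.5% and 23.0%.

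The loaders Cdc6 and Cdt1 were lower in every cKO library as well. Cdt1 (ENSMUSG00000006585, chromosome 8, 123294754 to 123300293, plus strand) was at 9.08, 8.46 and 11.4 FPKM in the FF libraries and 2.98, 5.06 and 3.04 FPKM in the cKO libraries. Replicate 2 was the highest cKO library, and the log2 difference of -1.201 (SE 0.21) was -1.40 without it. Cdc6 (ENSMUSG00000017499, chromosome 11, 98798627 to 98814766, plus strand), the ATPase that bridges the recognition complex and the ring, was a weakly expressed gene. It was at 2.05, 1.97 and 2.79 FPKM in the FF libraries and 0.939, 0.687 and 0.969 FPKM in the cKO libraries, from 71 to 279 reads per library. The 95% Poisson interval of counting error was 1.68 to 2.30 FPKM in FF replicate 2, the lowest FF library. In cKO replicate 3, the highest cKO library, it was 0.797 to 1.17 FPKM. These intervals hold the counting error of 1 library each and not the spread between libraries. On the log2(FPKM + 1) scale the difference of Cdc6 was -0.80 (SE 0.16), a scale that understates changes of weak genes, since the cKO mean was 38.1% of the FF mean.

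Mcm10, which acts after licensing, had the lowest mean FPKM of the 10 genes in FF hearts. It (ENSMUSG00000026669, chromosome 2, 4994525 to 5017602, minus strand) was at 1.45, 1.62 and 1.45 FPKM in the FF libraries and 0.803, 0.822 and 0.988 FPKM in the cKO libraries. The groups were apart, FF replicate 3 lay with its group, and the cKO mean was 57.8% of the FF mean. The log2 difference was -0.42 (SE 0.14). Mcm10 and Cdc6 averaged under 1 FPKM in the cKO libraries and passed the filter of a mean of 1 FPKM through their FF values.

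Geminin, the inhibitor of loading, had a cKO mean at 75.1% of the FF mean, the closest of the 10 genes with 6 libraries; without FF replicate 3 it was 69.1%, and Mcm7 was closest at 77.7%. Gmnn (ENSMUSG00000006715, chromosome 13, 24935828 to 24945906, minus strand) was at 26.2, 21.7 and 18.2 FPKM in the FF libraries and 17.4, 18.6 and 13.6 FPKM in the cKO libraries. FF replicate 3 fell inside the cKO range, and without it the groups were apart. The log2 difference was -0.39 (SE 0.18, 95% interval -0.82 to 0.045), and -0.51 (SE 0.15, 95% interval -0.89 to -0.14) without FF replicate 3. The ratio of Cdt1 to Gmnn within a library was 0.347, 0.390 and 0.625 in FF and 0.171, 0.271 and 0.224 in cKO hearts. It is free of scaling between libraries but not of their trends with GC content, which is 57.8% for Cdt1 and 49.8% for Gmnn. Every cKO library had less Cdt1 per Gmnn than every FF library, and FF replicate 3, with high Cdt1 and low Gmnn, stood above the rest. The mean ratio was 0.454 ± 0.150 in FF and 0.222 ± 0.05005 in cKO hearts (SD, n = 3 each), and 0.369 in FF without replicate 3.

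**Figure D3:**
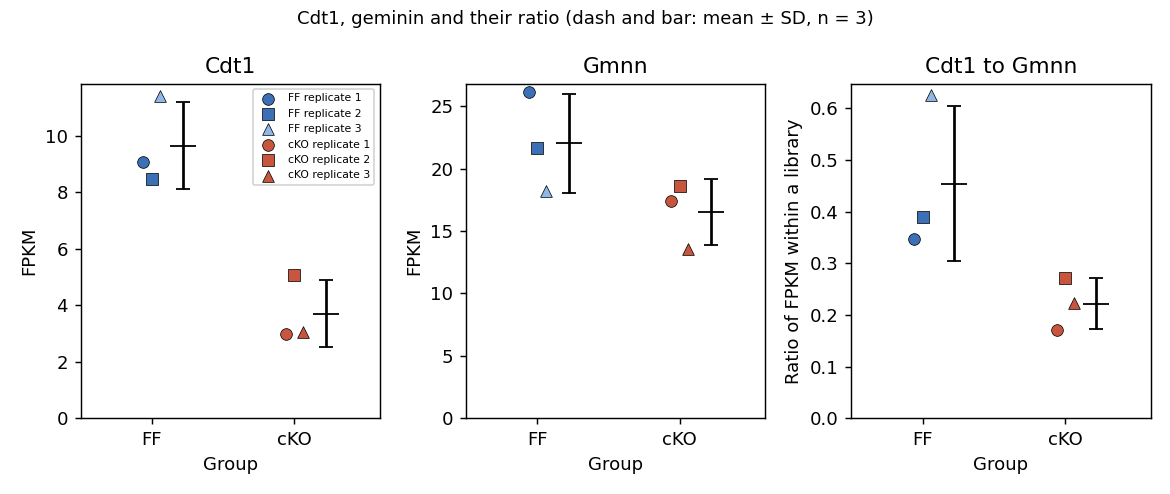
FPKM of Cdt1 and Gmnn and their ratio within each library, with points for libraries and dashes with bars for the mean ± SD of each group (n = 3). The ratio is 0.347 to 0.625 in FF and 0.171 to 0.271 in cKO libraries, and FF replicate 3 is the highest for Cdt1 and for the ratio but the lowest FF library for Gmnn.

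The order of the FPKM values differed between the groups. This order rests on the deposited gene lengths, 6956 bases for Mcm2 and 3752 for Mcm3. In FF replicate 1, Mcm2 had more reads than Mcm3 (1433 and 1349) but a lower FPKM (12.1 and 21.1). In FF hearts the order of mean FPKM was Mcm6, Gmnn, Mcm3, Mcm7, Mcm5, Mcm4, Mcm2, Cdt1, Cdc6 and Mcm10. Each neighbouring pair from Mcm6 down to Cdt1 overlapped in its library values, and only the steps from Cdt1 to Cdc6 and from Cdc6 to Mcm10 were clear of the spread. In cKO hearts the order was Gmnn, Mcm7, Mcm6, Mcm3, Mcm5, Mcm4, Mcm2, Cdt1, Mcm10 and Cdc6. There the steps from Mcm7 to Mcm6, from Mcm6 to Mcm3, from Mcm4 to Mcm2 and from Cdt1 to Mcm10 were clear of the spread. Among FF libraries, FF replicate 3 was the highest for 7 of the 10 genes and the lowest for 3, Mcm4, Mcm10 and Gmnn.

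Across all genes, differences were fitted with limma and Benjamini-Hochberg adjustment at 0.05. With 6 libraries, 2 of the 10 genes, Mcm3 and Mcm5, fell past that threshold, beside 0.0947% of the 12678 genes tested that were called lower. Without FF replicate 3 it was 7 of the 10, beside 6.26% of the genes tested. These were Mcm2, Mcm3, Mcm4, Mcm5, Mcm6, Cdc6 and Cdt1, and Mcm7, Mcm10 and Gmnn did not pass. None of the 10 was called higher. The groups did not overlap at 8 of the 10 genes with 6 libraries, where 14.5% of the genes tested lay lower in cKO hearts without overlap, and at 9 of the 10 without FF replicate 3, where 27.0% did. The median log2 difference was -1.07 over the 10 genes and -1.18 over Mcm2 to Mcm7, against 0.0056 over all genes tested, and -1.07, -1.10 and -0.0093 without FF replicate 3. Since the genes were chosen with this comparison known, these counts stand as description only. Cdc6 and Mcm10, which passed the filter through their FF values, are both among the genes without overlap, and Cdc6 is among the 7. Of Mcm2 to Mcm7 alone, 2 of 6 were called lower with 6 libraries and 5 of 6 without FF replicate 3. With 6 libraries the calls of Mcm3 and Mcm5 were lost when any library other than FF replicate 3 was left out.

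**Figure D4:**
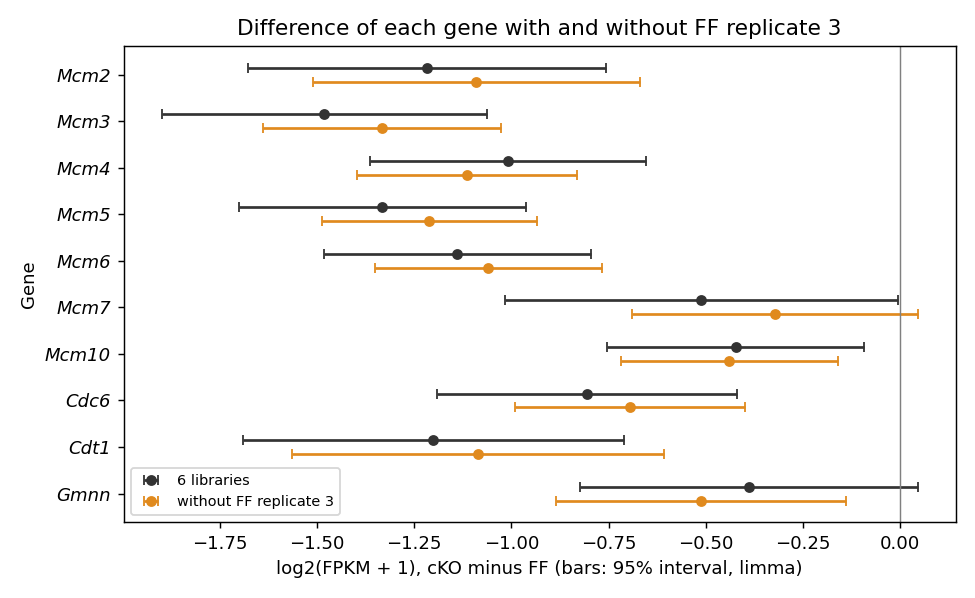
Difference of each gene on the log2(FPKM + 1) scale, cKO minus FF, with 95% intervals from limma, for 6 libraries (black) and without FF replicate 3 (orange). All estimates lie below 0, from -1.48 for Mcm3 to -0.39 for Gmnn with 6 libraries, and the interval of Mcm7 without FF replicate 3 (-0.69 to 0.045) and that of Gmnn with it (-0.82 to 0.045) reach above 0.

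The promoters of these genes were looked at for sequence words, because the members lay lower together. RefSeq starts on GRCm38.p6 were matched by symbol for 8 of the 10 genes, from 250 bases before to 50 bases after the start, giving 9 windows since Mcm7 has a pair of starts. Mcm4 and Gmnn had no entry. The words searched on both strands were TTTCGCGC, TTTGGCGC, TTTCCCGC and TTTGCCGC for E2F sites, CCAAT for the box bound by NF-Y, TTTGAA for the cell cycle homology region (CHR) and GGGCGG for the GC box bound by SP factors. An E2F word was found at 6 of the 8 genes (Mcm3, Mcm5, Mcm6, Mcm7, Cdt1 and Cdc6), against 2.26% of all 32851 promoter windows and 4.87% of the tested genes with such a window. A CCAAT box was found at 6 of the 8 genes, against 43.0% of the tested genes, a GC box at 6 against 70.3%, and a CHR word at 1, Mcm2, against 14.2%. Mcm2 and Mcm10 held no E2F word of this spelling in the window. A match is a description of the letters and not evidence that a factor binds.

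The E2F words of Mcm6 and Mcm5 lie upstream of the start and are shown with the bases that lead up to it, since these genes hold a pair of overlapping words, 1 on each strand, in 12 bases. Capitals mark the E2F words and the CCAAT boxes, in either direction. For Mcm6 the stretch runs from base -120 to base -1 before the start (GRCm38.p6, minus strand, chr1:128359706-128359825), and for Mcm5 from -163 to -1 (GRCm38.p6, plus strand, chr8:75109346-75109508).
Mcm6: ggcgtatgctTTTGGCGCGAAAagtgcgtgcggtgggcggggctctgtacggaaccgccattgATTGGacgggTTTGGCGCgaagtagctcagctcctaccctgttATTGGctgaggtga
Mcm5: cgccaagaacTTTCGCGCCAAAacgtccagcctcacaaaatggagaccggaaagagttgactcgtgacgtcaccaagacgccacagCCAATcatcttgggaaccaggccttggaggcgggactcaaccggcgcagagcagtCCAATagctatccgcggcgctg

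In the other 4 genes the words lie before or just after the start, shown as windows of 30 bases with the E2F words in capitals. Mcm3 (chr1:20820266-20820295, minus strand) holds a word in each direction at 20 and 39 bases after the start. Mcm7 (minus strand) holds 1 at -165 (chr5:138172030-138172059) and 1 at 17 (chr5:138171849-138171878), where the last base of the word is also the first of a CCAAT box. Cdt1 (chr8:122568035-122568064, plus strand) holds 1 at 33, and Cdc6 (chr11:98908002-98908031, plus strand) 1 at -138, all on GRCm38.p6. Both words of Mcm7 belong to the upstream start of its pair. The part of these words in the differences between the groups was not tested.
Mcm3: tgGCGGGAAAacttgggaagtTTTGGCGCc
Mcm7, upstream: aatttcgaaccGCGGGAAAcagggtgtcca
Mcm7, at the start: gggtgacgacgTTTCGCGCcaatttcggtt
Cdt1: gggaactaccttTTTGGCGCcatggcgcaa
Cdc6: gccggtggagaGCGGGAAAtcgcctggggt

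Tested genes with an E2F word lay close to all tested genes with a promoter window in their median, but not in their calls without FF replicate 3. The part of E2F factors in these values was not tested. Leaving the 10 genes out, 438 genes had a median log2 difference of -0.021, against 0.011 over the 9099 tested genes with a promoter window. With 6 libraries 0 of the 438 were called lower and 0 higher in limma, against 7 and 6 of the 9099. Without FF replicate 3, 51 of the 438 (11.6%) were called lower and 18 (4.11%) higher, against 6.17% and 6.25% of the 9099.

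The other genes of the licensing pathway were taken from lists of 40 genes by function, of which 34 passed the filter. The lists were chosen with earlier results of these data known, so the calls and p-values of their genes are description. With 6 libraries, 0 of the 34 passed (limma, Benjamini-Hochberg adjusted), beside 0.0947% of all genes tested called lower and 0.0710% called higher. At an unadjusted p under 0.05, 7 were lower and 4 higher, where 9.55% and 8.39% of all genes tested were. Without FF replicate 3, 7 of the 34 were called lower and 3 higher, beside 6.26% and 5.73% of the genes tested. Leaving out Dtl and Lrr1, which passed the filter through their FF level alone, it was 5 lower and 3 higher of 32.

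Origin recognition genes were mixed. Of 6 tested, only Orc6, the smallest subunit of the complex, passed lower without FF replicate 3, beside 6.26% of all genes tested. Orc6 was at 12.95, 11.2 and 8.44 FPKM in the FF libraries and 7.63, 6.43 and 6.87 FPKM in the cKO libraries. Its log2 difference without FF replicate 3 was -0.72 (adjusted p = 0.0191 in limma). Its groups did not overlap with 6 libraries either, where the log2 difference was -0.56 (adjusted p = 0.172). Orc3, a core subunit, was at 9.13 ± 1.10 FPKM in the FF libraries and 10.1 ± 0.590 FPKM in the cKO libraries (SD, n = 3 each). The 95% interval of its log2 difference without FF replicate 3, -0.17 to 0.26, holds no difference of the size seen in Mcm3. Orc1, the E2F-regulated subunit, fell just below the filter and was not tested, with 1.14, 1.28 and 1.502 FPKM in the FF libraries and 0.786, 0.727 and 0.556 FPKM in the cKO libraries.

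Relatives and cofactors of the ring had 0 of 4 tested genes past the threshold with or without FF replicate 3 (limma). At an unadjusted p under 0.05 it was 0 with 6 libraries, where 9.55% of all genes tested were lower and 8.39% higher. Without FF replicate 3 it was 1, where 17.5% of all genes tested were lower and 15.9% higher. Kat7, the acetylase that aids licensing, was at 16.1 ± 4.67 FPKM in the FF libraries and 12.3 ± 2.16 FPKM in the cKO libraries, and Mcmbp, which binds free MCM proteins, at 11.6 ± 0.763 and 10.6 ± 0.862 FPKM (SD, n = 3 each). Mcm8 and Mcm9, which form a separate helicase used in repair, had log2 differences of -0.28 (95% interval -0.52 to -0.035) and 0.062 (95% interval -0.19 to 0.31) without FF replicate 3. With 6 libraries they were -0.066 (95% interval -0.55 to 0.42) and 0.11 (95% interval -0.18 to 0.40), and the groups of both genes overlapped. The meiotic Mcmdc2 was at 0.0685 FPKM or less in every library, and the geminin relatives Gmnc and Mcidas were listed at 0 in all 6.

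Genes of helicase activation and origin firing lay mostly lower. With 6 libraries 10 of the 11 tested had a log2 difference below 0, beside 6254 of all 12678 genes tested. The median of the list was -0.47, against 0.0056 over all genes tested. Without FF replicate 3, 4 of the 11 were called lower in limma, beside 6.26% of all genes tested. They were Gins1 (adjusted p = 0.0175, limma, and 0.0728 with 6 libraries), Topbp1 (0.0180 and 0.174), Wdhd1 (0.0184 and 0.405) and Gins2 (0.0385 and 0.0932). Gins1 and Gins2 belong to the GINS complex, which joins CDC45 and the MCM ring in the active helicase. Gins1 was at 9.93, 7.01 and 5.93 FPKM in the FF libraries and 3.61, 2.80 and 2.52 FPKM in the cKO libraries, and Gins2 at 3.36, 2.21 and 3.57 FPKM and 1.29, 1.40 and 1.203 FPKM. The groups did not overlap at either gene, and Gins1 (log2 difference -1.24 without FF replicate 3) was of the size of Mcm2 to Mcm6. Cdc45 was at 5.85, 4.17 and 5.01 FPKM in the FF libraries and 3.15, 3.30 and 2.63 FPKM in the cKO libraries, apart but short of the threshold (adjusted p = 0.0601 without FF replicate 3, limma). Topbp1, which activates the checkpoint kinase ATR and takes part in firing, was at 8.69, 7.80 and 5.52 FPKM in the FF libraries and 4.48, 5.04 and 4.17 FPKM in the cKO libraries. Its groups were apart, while those of Wdhd1, which links helicase and polymerase, overlapped through FF replicate 3, with 3.42, 3.15 and 1.29 FPKM in the FF libraries and 1.72, 1.32 and 1.45 FPKM in the cKO libraries. Donson, a factor of helicase assembly, was at 3.27 ± 0.925 and 2.18 ± 0.568 FPKM (SD, n = 3 each) and did not pass (adjusted p = 0.0562 without FF replicate 3, limma). Gins4, the gene with the highest mean FPKM of this list, was at 15.5 ± 2.30 and 11.1 ± 2.82 FPKM (SD, n = 3 each). Dbf4, the activator of the firing kinase CDC7, was the exception to the genes below 0, with a log2 difference of 0.15 (95% interval -0.40 to 0.70) with 6 libraries and -0.094 (95% interval -0.41 to 0.22) without FF replicate 3.

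Genes that degrade or protect licensing proteins went both ways. Without FF replicate 3, 3 of the 13 tested were called higher in limma, beside 5.73% of all genes tested. They were Ccnf (adjusted p = 0.0283, limma, and 0.147 with 6 libraries), Ddb1 (0.0491 and 0.294) and Cul4a (0.04996 and 0.170). Dtl and Lrr1 fell past the threshold on the lower side, but they averaged under 1 FPKM in the cKO libraries. They passed the filter through their FF level alone, a further reason to take their calls as description only. DTL is the receptor that brings CDT1 to the CUL4 and DDB1 ubiquitin ligase, so members of 1 ligase were on both sides. Dtl was at 2.85, 2.43 and 1.72 FPKM in the FF libraries and 0.765, 1.07 and 0.726 FPKM in the cKO libraries, while Ddb1 was at 48.5, 48.9 and 59.7 FPKM and 60.1, 72.2 and 64.7 FPKM. The groups of Ddb1 were barely apart, with FF replicate 3 just below cKO replicate 1. Cul4a was at 19.0 ± 1.36 and 24.8 ± 0.630 FPKM (SD, n = 3 each). Ccnf, cyclin F, which targets CDC6 for degradation in G2, was at 1.31, 1.01 and 1.68 FPKM in the FF libraries and 2.54, 2.16 and 2.69 FPKM in the cKO libraries. Lrr1, which helps to unload the helicase, rested on 13 to 51 reads per library. Fbxo5, an inhibitor of the ligase that degrades geminin, was at 9.83, 8.58 and 3.31 FPKM in the FF libraries and 7.05, 6.09 and 5.41 FPKM in the cKO libraries, and did not pass (adjusted p = 0.0507 without FF replicate 3, limma).

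**Figure D5:**
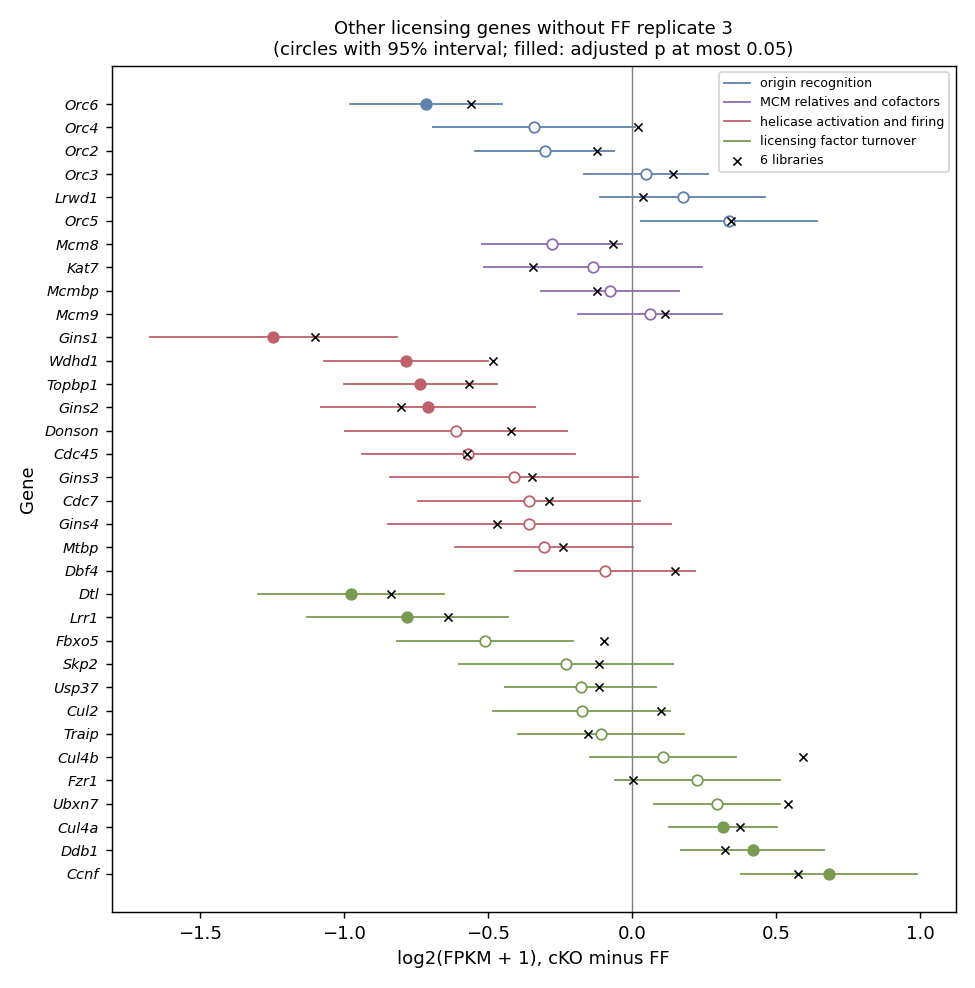
Differences of the 34 other licensing genes on the log2(FPKM + 1) scale, cKO minus FF. Circles with 95% intervals are without FF replicate 3, filled where the limma adjusted p is at most 0.05, and crosses are with 6 libraries. Filled circles lie below 0 at 7 genes, from -1.24 for Gins1, and above 0 at Cul4a, Ddb1 and Ccnf. Among the 7, Dtl and Lrr1 passed the filter through their FF level alone.

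Genes with a profile like that of the ring were sought among the other 6992 genes with a mean of at least 5 FPKM, by Pearson's r over the libraries with the mean log2(FPKM + 1) of Mcm2 to Mcm7. Over 6 libraries the closest included Odc1 (r = 0.995), Ephx2 (r = 0.995), Reep5 (r = 0.994) and Bcl10 (r = 0.994). Over the 5 libraries without FF replicate 3 they were Snrpn, Pttg1, Rnf168, Glrx5 and Ccnd1, each with r above 0.999. Few libraries and a group difference make high values common, as 185 genes exceeded 0.95 over 6 libraries and 487 over 5. Odc1, the first enzyme of polyamine synthesis, was at 51.3, 41.9 and 50.1 FPKM in the FF libraries and 26.8, 27.3 and 27.4 FPKM in the cKO libraries. Pttg1 (securin) was at 22.8 FPKM in FF replicate 3 and at 13.4 to 17.0 FPKM in the other 5 libraries.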

How the data were processed

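The authors deposited FPKM values per gene in 6 columns, per the file headers, with gene positions and the length in bases. FastQC, Subread, featureCounts, edgeR and TopHat2 2.0.13 stand in the submitters' processing notes, which give neither their order nor the part each build (mm10, GRCm39 and GRCh38) played. Of 52073 gene identifiers shared with GENCODE M21 (mm10), 1472 had the same start and end, and 0 of the 10 genes did. Positions of genes are as deposited, and of the mouse builds named this leaves GRCm39, while promoters are on GRCm38.p6.

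In each library the product of FPKM and gene length came in whole steps (100% of values under 200 reads within 0.1), so the reads behind each value were recovered. Relative to those reads, the authors' scaling used a library size of 0.960 to 1.07. The log2(FPKM + 1) values were fitted in R 4.3.3 by limma 3.58.1, group as the only term, with a trend in the variance prior, over genes with a mean of at least 1 FPKM across the 6 libraries. Fits were tested on simulated data without an outlying library or a GC trend, so that test does not cover FF replicate 3. The 10 genes and the gene lists were chosen with earlier results of these data known. Pathway genes named by rule were the 12 with the smallest p without FF replicate 3 and the 2 with the highest mean FPKM of each list. Orc1, Mcm8, Mcm9, Mcmdc2, Gmnc, Mcidas, Cdc45, Dbf4, Cops6 and Ap4m1 were named after their values were seen. 1 gene that the rule for similar profiles names is not reported here.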

Additional observations from a re-analysis of the deposited data

How the results depend on the processing

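None of the 158 values of the 10 genes under the alternatives changed sign, and 151 stayed within 1 SD between libraries. The 7 others were Mcm2 (-0.94), Mcm3 (-1.21), Mcm6 (-0.93) and Mcm7 (-0.16) with library weights, Cdc6 (-1.29) and Mcm10 (-0.73) with a pseudocount of 0.1, and Mcm10 (-0.52) with quantile normalization. The median of Mcm2 to Mcm7 stayed between -1.33 (without FF replicate 2) and -0.96 (library weights). The number of calls depended on the setting far more than the differences did. Over all genes tested, 21 passed, and 11 with a pseudocount of 0.1, 0 with no filter, 53 with a mean of at least 5 FPKM, 59 with quantile normalization, 34 with library sizes taken without mitochondrial and haemoglobin genes, 519 with GC correction and 4300 with library weights, where FF replicate 3 had a weight of 0.0860 and FF replicate 2 of 5.69. Of the 10 genes, 2 passed, and 0 with a pseudocount of 0.1, no filter or median-ratio scaling, 4 of 8 tested with a mean of at least 5 FPKM, 7 with GC correction and 9 with library weights. At an unadjusted p under 0.05, 9 of the 10 were lower in each of these settings except the mean of at least 5 FPKM, where 7 were, beside 9.55% of all genes tested (5.29% with no filter, 840 of 7000 genes with a mean of at least 5 FPKM, 11.8% with GC correction, 22.9% with library weights). Such counts reuse the same libraries and genes chosen with the comparison known, so here and below they are description only. Cdc6 and Mcm10, which passed the filter through their FF values, are among the 10. Of the 34 pathway genes, 0 passed, 5 with GC correction and 16 with library weights.

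Leaving out 1 library gave 0 to 1520 calls over all genes, 0 to 7 among the 10 genes and 0 to 10 among the pathway genes. The highest counts came without FF replicate 3, and the count was 0 without FF replicate 1, FF replicate 2 or any cKO replicate, where 7 to 8 of the 10 genes were lower at an unadjusted p under 0.05, beside 5.22% to 8.54% of all genes tested. The labels number the libraries without saying that numbers are shared between groups, and same-numbered libraries deviated together with correlations of 0.38, -0.24 and 0.24, so they were not taken as paired. With the number as a replicate block, 2 genes of all passed and 0 of the 10 and of the pathway genes, and 0 in each case with GC correction as well, with 8 and 10 of the 10 genes lower at an unadjusted p under 0.05, beside 8.26% and 11.1% of all genes tested. Cdc6, with 71 to 279 reads per library, had the fewest reads of the 10 genes, and of the pathway genes tested Lrr1 had 13 to 51.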
